A study of Mus musculus with 17 samples.

Results

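The genes of fatty acid oxidation and ketogenesis examined here are 29 mouse genes chosen by name from the pathway, out of 27179 genes with a row in the deposited count tables. All 29 had a row, and all 29 passed the filter on low counts in every fit. RNA was sequenced from preparations labelled colon macrophages, taken from C57BL/6(h-2b) mice of 8 weeks, in 17 libraries with 1 mouse number each. Wild-type mice were compared with mice deficient in MCJ, the mitochondrial inner-membrane protein encoded by Dnajc15, an inhibitor of respiratory complex I. Each genotype was sampled in 3 conditions. NN libraries carry no named treatment (3 wild-type and 2 MCJ-deficient libraries). NP mice received dextran sulfate sodium (DSS), a sulfated polysaccharide that injures the colon lining, for 6 days without antibiotic (3 and 3). PP mice received a broad-spectrum antibiotic for 7 days and then DSS for 6 days (3 and 3). The labels name neither the allele by which MCJ was lost nor a cell sorting step, and they state that macrophages were obtained by washing and collagenase digestion. The p-values below measure the spread between these libraries.

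Fatty acids are oxidised in the mitochondrial matrix after acyl-CoA synthetases attach coenzyme A and the carnitine shuttle moves the chains across the inner membrane. Each turn of the spiral is run by an acyl-CoA dehydrogenase, a hydratase, a hydroxyacyl-CoA dehydrogenase and a thiolase, and releases acetyl-CoA. Electrons of the first step pass through the electron transfer flavoprotein to ubiquinone. In the colon, mature surface epithelial cells burn butyrate made by gut bacteria through the short-chain end of this pathway, and part of the acetyl-CoA leaves as ketone bodies. Macrophages also oxidise fatty acids, and alternatively activated ones are known for it.

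Library totals ran from 29194744 to 37083344 counts. Counts were scaled with TMM factors over all 17 libraries and are given as CPM, the count of a gene relative to the scaled library total. Dnajc15 had 359 to 1534 counts in the wild-type libraries and 21 to 121 in the MCJ-deficient ones, without overlap. The labelled cell type was checked against marker genes. The 14 macrophage markers summed to 32.7 to 50.9 CPM in the 5 NN libraries, while 16 colonocyte markers summed to between 24250 and 35170 CPM there. None of the 14 macrophage markers was at 0 in a whole group. Macrophage markers reached 157 to 250 CPM in wild-type NP, 546 to 1565 in MCJ-deficient NP, 655 to 5128 in wild-type PP and 2908 to 5647 in MCJ-deficient PP. Colonocyte markers fell to 13080 to 19640 CPM in wild-type PP and 12800 to 18570 in MCJ-deficient PP. Within PP, wild-type library 11 and MCJ-deficient library 24 had the least macrophage and the most colonocyte marker RNA of their groups. The macrophage sum was 655 CPM in library 11, against 5128 and 4819 in libraries 10 and 12. For library 24 the distance was smaller, at 2908 CPM against 3483 and 5647 in libraries 22 and 23. Xist, the RNA of the inactive X chromosome of female cells, had between 1100 and 7950 counts in 4 of the 5 NN libraries and 1 count in wild-type NN library 3. It had at most 9 counts in every PP library, and among NP libraries was high only in MCJ-deficient library 21, at 3822 counts beside 1478 counts of 4 Y-linked genes. The sexes of the mice are not named in the labels.

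The promoter windows of 5 members are shown first, because 4 of these members fell together in wild-type PP mice and the fifth, Acsl4, rose. Each runs from 250 bases before to 50 bases after the annotated start (RefSeq, mouse assembly GRCm38, mm10), 5′ to 3′ on the strand of the gene. Capitals mark each match, on either strand and with at most 3 mismatches, to a pair of AGGTCA half-sites in the same direction with 1 base between them, the element bound by PPAR-alpha with its partner RXR. Ech1 (window chr7:28825088-28825387, plus strand), Hadh (chr3:131272052-131272351, minus strand), Echs1 (chr7:140116372-140116671, minus strand), Etfb (chr7:43443822-43444121, plus strand) and Acsl4 (chrX:142390486-142390785, minus strand) read as follows.
Ech1: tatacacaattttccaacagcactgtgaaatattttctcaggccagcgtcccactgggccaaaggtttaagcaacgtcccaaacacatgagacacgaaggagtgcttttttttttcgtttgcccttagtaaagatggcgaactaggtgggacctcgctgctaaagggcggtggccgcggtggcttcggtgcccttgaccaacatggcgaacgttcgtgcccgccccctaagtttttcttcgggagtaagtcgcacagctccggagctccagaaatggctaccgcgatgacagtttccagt
Hadh: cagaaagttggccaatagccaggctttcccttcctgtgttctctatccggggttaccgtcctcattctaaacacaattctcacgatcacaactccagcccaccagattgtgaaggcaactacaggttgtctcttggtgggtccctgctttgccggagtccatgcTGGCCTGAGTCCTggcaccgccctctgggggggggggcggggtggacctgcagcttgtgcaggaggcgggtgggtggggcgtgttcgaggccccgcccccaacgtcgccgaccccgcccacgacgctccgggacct
Echs1: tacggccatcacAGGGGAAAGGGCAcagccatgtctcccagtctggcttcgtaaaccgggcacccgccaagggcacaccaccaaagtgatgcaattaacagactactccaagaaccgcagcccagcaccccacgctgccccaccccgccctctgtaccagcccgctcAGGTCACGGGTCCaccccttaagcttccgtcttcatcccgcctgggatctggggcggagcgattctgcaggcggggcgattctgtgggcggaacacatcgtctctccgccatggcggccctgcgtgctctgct
Etfb: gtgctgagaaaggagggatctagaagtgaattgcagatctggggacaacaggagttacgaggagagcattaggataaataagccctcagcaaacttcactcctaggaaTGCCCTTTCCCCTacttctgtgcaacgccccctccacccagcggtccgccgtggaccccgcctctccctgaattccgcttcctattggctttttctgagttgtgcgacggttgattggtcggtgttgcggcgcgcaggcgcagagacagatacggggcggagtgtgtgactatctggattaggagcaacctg
Acsl4: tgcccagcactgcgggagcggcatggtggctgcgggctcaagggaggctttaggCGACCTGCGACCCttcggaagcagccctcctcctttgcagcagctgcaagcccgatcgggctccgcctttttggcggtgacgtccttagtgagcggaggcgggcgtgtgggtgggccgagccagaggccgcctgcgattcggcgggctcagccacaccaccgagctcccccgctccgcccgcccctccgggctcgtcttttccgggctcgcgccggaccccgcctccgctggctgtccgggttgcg
Among these 5, a match with no more than 2 mismatches occurred only in Echs1, whose later match begins 83 bases before the start. RefSeq gave 28 windows for 26 of the 29 members, and Acaa2, Decr1 and Acat1 had none. Of these 28 windows, 3 held a match with at most 2 mismatches, against 3.42% of 22271 windows of all genes. With 3 mismatches allowed, 9 of 28 windows matched, against 23.1% of all windows. The motif TNAAGGTCA of the receptor ERR-alpha, searched without mismatches on both strands, was in none of the 28 windows and in 1.11% of all. It contains an AGGTCA half-site and so can overlap the first motif. CAAAGTCCA, a motif of the liver and gut factor HNF4-alpha, was in none of the 28 and in 0.471% of all. The median GC content was 60.67% in the members' windows and 56.33% in all windows. Hadha and Hadhb, which encode both subunits of the trifunctional protein, start head to head, so that their windows overlap on opposite strands.

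The levels in untreated wild-type colon preparations can be compared between genes only per length, as CPM per kilobase of merged exons. Ech1 was highest at 363 ± 63.1 CPM per kilobase (SD, n = 3), followed by Hadh at 278 ± 26.8 and Etfb at 238 ± 49.8. These neighbours overlapped across libraries, with Ech1 between 298 and 424 and Hadh between 258 and 309. Echs1 at 150 ± 19.8, Hadhb at 144 ± 25.4 and Etfa at 124 ± 20.6 came next, also within each other's spread. The lowest were the regulator Ppara at 3.05 ± 1.60 and the synthetases Acsl4 at 1.40 ± 0.65 and Acsl1 at 0.51 ± 0.52.

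Summed over the 29 genes, the level was highest in NN and lowest in PP. The sum was 3706 ± 297 CPM in wild-type NN (SD, n = 3) and 3696 ± 132 in MCJ-deficient NN (n = 2). It was 2755 ± 335 and 2913 ± 208 in NP, and 2341 ± 424 and 2201 ± 323 in PP (n = 3 each). Group means ran in the order NN, NP, PP from high to low for 19 of 29 members in wild type and 20 of 29 in MCJ-deficient mice. They ran in the opposite order for 4 of 29 in each. The share of all genes with either order is not given here, so these counts are not read as particular to the members.

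**Figure D1:**
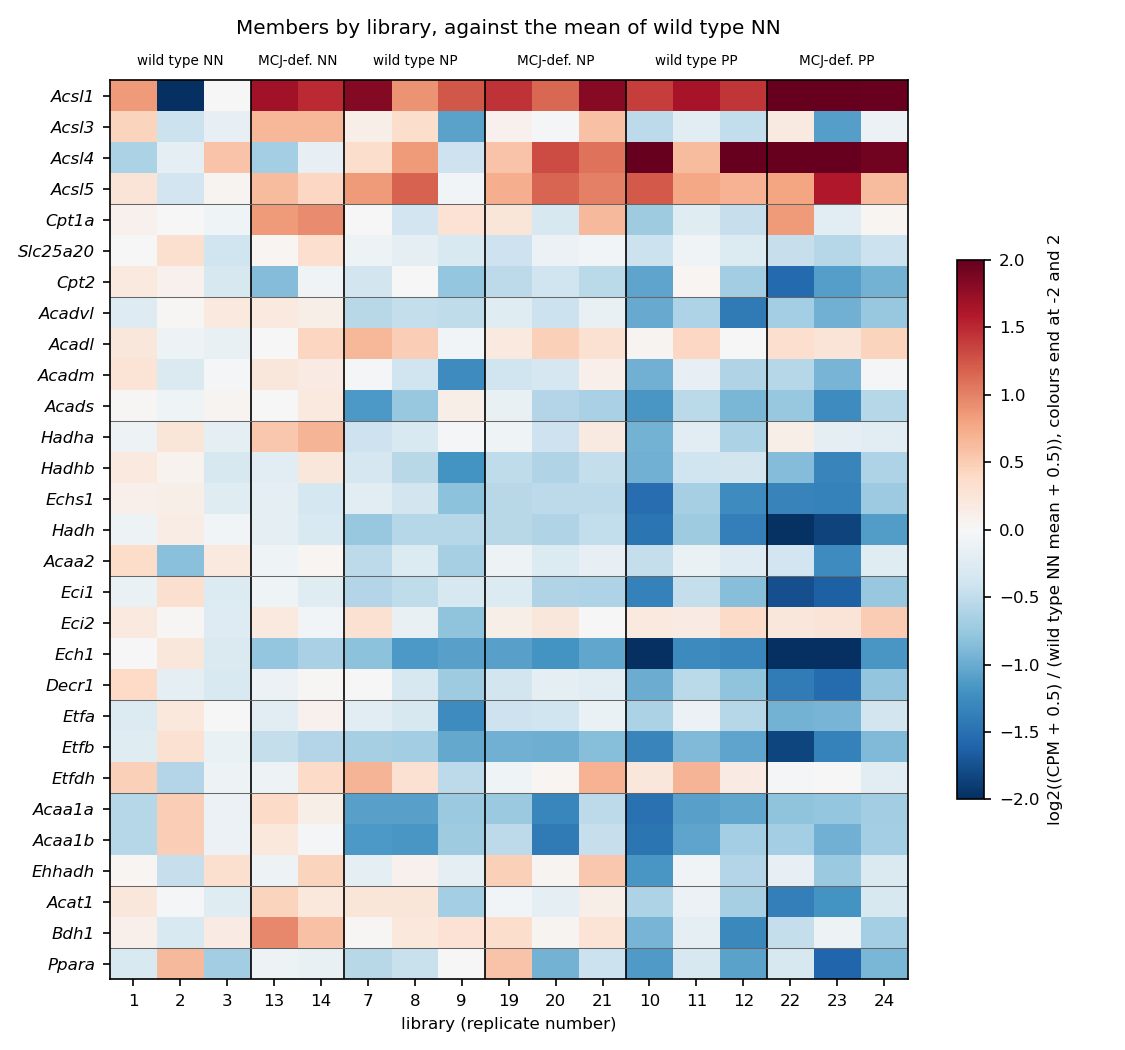
Level of each of the 29 genes (rows, by role) in each of the 17 libraries (columns, by group), as log2 of CPM plus 0.5 against the mean of wild-type NN, with blue lower and red higher and colours ending at -2 and 2. Most rows turn blue from left to right, while Acsl1, Acsl4 and Acsl5 turn red.

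The effect of antibiotic plus DSS was asked by comparing PP with NN within each genotype. In wild type, 9 of the 29 members fell and 1 rose, and in MCJ-deficient mice 8 fell and 1 rose. The falling genes belonged to the spiral itself, the auxiliary enzymes, electron transfer and the peroxisomal and ketone branches, and the gene that rose in both genotypes was Acsl4. Over all 16958 genes tested, 7.31% were called lower and 12.8% higher in wild type. The shares were 3.77% lower and 6.52% higher in MCJ-deficient mice (edgeR, quasi-likelihood F test, called at a Benjamini-Hochberg adjusted p under 0.05). The median log2 fold change of the members was -0.55 in wild-type mice and -0.78 in MCJ-deficient mice, against 0.27 and 0.06 over all genes tested. Of the falling members, 6 were shared between genotypes (Acadvl, Hadh, Eci1, Ech1, Decr1 and Acaa1a), which is 66.7% of the wild-type list and 75% of the MCJ-deficient list. The fold changes had the same sign in both genotypes for 28 of 29 members. The share of all genes with the same sign is not given here, so this count is not read as particular to the members. With DESeq2 size factors in place of TMM, 2 members rose and 7 fell in wild type, where 13.2% of all genes rose and 7.05% fell. With the fit restricted to the groups compared, the calls were 5 in wild type, all lower, and 4 in MCJ-deficient mice, against 11.7% and 11.6% of all genes. DESeq2 called 13 and 9 members, against 28.3% and 18.7% of the genes it gave an adjusted p.

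**Figure D2:**
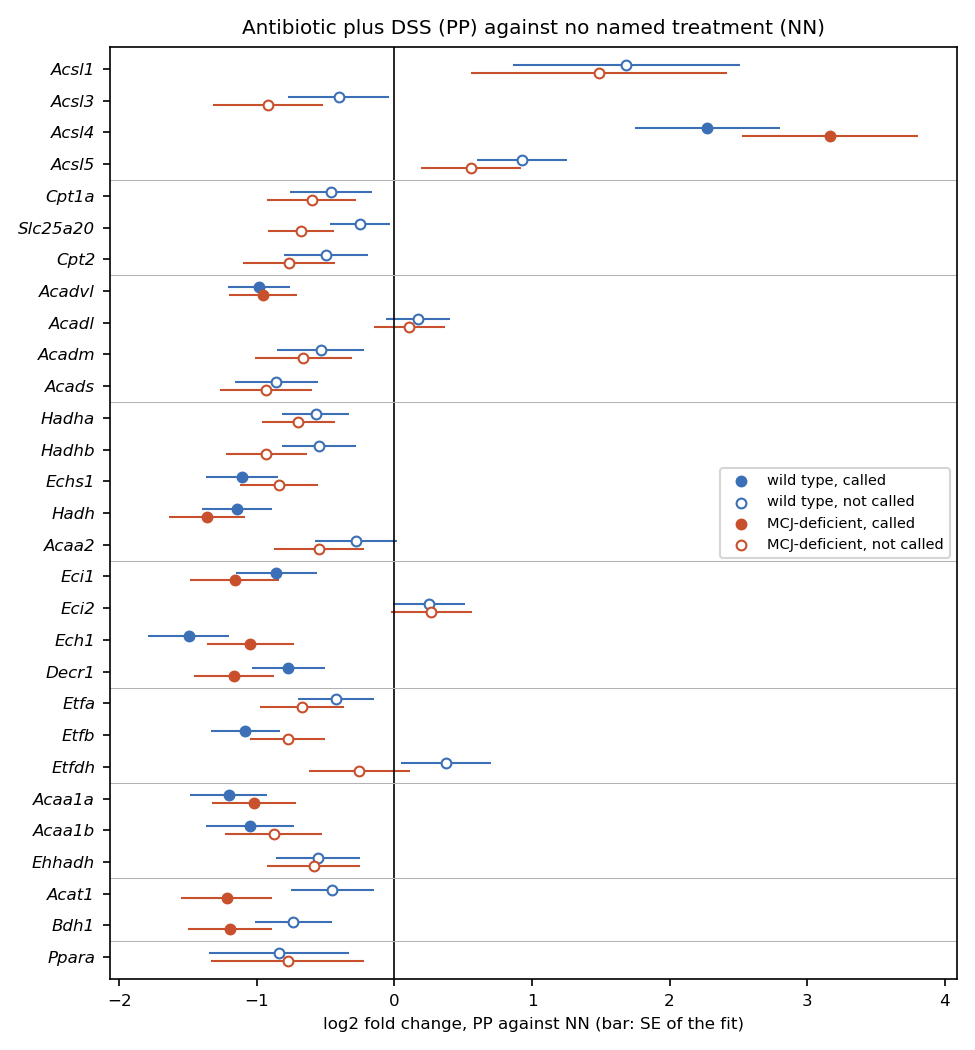
Log2 fold change of each gene in PP against NN (horizontal axis, bars are SE of the fit), for wild type in blue and MCJ-deficient in orange, with filled points for genes called at an adjusted p under 0.05. Points lie left of 0 for 23 members in wild-type mice and 24 in MCJ-deficient mice, and Acsl4 lies farthest right.

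Among the acyl-CoA synthetases, which activate fatty acids, Acsl4 (chrX:142317993-142390802) prefers polyunsaturated chains such as arachidonic acid. It had 4.63, 6.42 and 11.3 CPM in wild-type NN libraries 1, 2 and 3, and 60.7, 11.8 and 35.9 in PP libraries 10, 11 and 12. In MCJ-deficient mice it had 4.44 and 6.63 CPM in NN libraries 13 and 14, and 55.7, 63.9 and 29.9 in PP libraries 22, 23 and 24. The groups did not overlap in either genotype, although wild-type PP library 11 lay just above the highest NN library. The log2 fold change was 2.28 ± 0.53 (SE, adjusted p = 0.0054) in wild-type mice and 3.17 ± 0.64 (adjusted p = 0.0037) in MCJ-deficient mice. Library 11 was also the wild-type PP library with the least macrophage marker RNA (655 CPM, against 5128 and 4819), and the part of that RNA in the rise of Acsl4 was not tested. The other synthetases were not called. Acsl5, a synthetase of intestinal epithelium, had log2 fold changes of 0.93 ± 0.33 (adjusted p = 0.053) and 0.56 ± 0.37, Acsl3 had -0.41 ± 0.36 and -0.92 ± 0.40, and Acsl1 had 1.69 ± 0.82 and 1.49 ± 0.93, in wild type and MCJ-deficient mice respectively. In wild-type NN, Acsl1 ranged from 0 counts in library 2 to 105 in library 1, while the MCJ-deficient NN libraries had 271 and 305.

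None of the 3 carnitine shuttle genes was called. Cpt1a, which makes acylcarnitines at the outer membrane and is the step held back by malonyl-CoA, had log2 fold changes of -0.46 ± 0.30 and -0.60 ± 0.33. The carrier Slc25a20 had -0.25 ± 0.22 and -0.68 ± 0.24, and Cpt2, which rebuilds acyl-CoA in the matrix, had -0.50 ± 0.31 and -0.77 ± 0.34. The estimates were below 0 for all 3 in both genotypes, and the smallest adjusted p among them was 0.086, for Slc25a20 in MCJ-deficient mice.

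Of the 4 acyl-CoA dehydrogenases, only the very-long-chain enzyme Acadvl (chr11:70010183-70015428) was called. It had 102, 123 and 139 CPM in wild-type NN and 60.0, 78.7 and 45.1 in PP, and 138 and 132 CPM in MCJ-deficient NN against 75.8, 62.2 and 71.4 in PP. Every PP library was below every NN library of its genotype. The log2 fold change was -0.98 ± 0.23 (edgeR adjusted p = 0.0053) in wild-type mice and -0.95 ± 0.25 (adjusted p = 0.019) in MCJ-deficient mice. Both calls were lost with only the groups compared in the fit, and the MCJ-deficient call also without PP library 23. The short-chain enzyme Acads, which acts on butyryl-CoA, had -0.86 ± 0.30 (adjusted p = 0.055) and -0.93 ± 0.33 (adjusted p = 0.087). The medium-chain enzyme Acadm had -0.54 ± 0.32 and -0.66 ± 0.35. The long-chain enzyme Acadl had 0.17 ± 0.23 and 0.11 ± 0.26, so the chain-length classes did not all have estimates of the same sign.

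The hydratase and hydroxyacyl dehydrogenase steps held one gene that fell in both genotypes and one called in wild type. Hadh (chr3:131233419-131272101), the short-chain hydroxyacyl-CoA dehydrogenase, had 462, 552 and 478 CPM in wild-type NN and 180, 303 and 193 in PP. In MCJ-deficient mice it had 441 and 404 CPM in NN and 126, 138 and 230 in PP. The NN and PP libraries did not overlap, and PP libraries 11 and 24 were the highest of their groups. The log2 fold change was -1.14 ± 0.25 (adjusted p = 0.0042) in wild-type mice and -1.36 ± 0.28 (adjusted p = 0.0039) in MCJ-deficient mice. Echs1 (chr7:140105710-140116421), the short-chain enoyl-CoA hydratase, had 250, 252 and 198 CPM in wild-type NN and 80.7, 147 and 97.0 in PP. It fell by 1.11 ± 0.26 on the log2 scale (adjusted p = 0.006) in wild-type mice and had -0.84 ± 0.28 (adjusted p = 0.07) in MCJ-deficient mice. The overlapping gene Paox had counts equal to 4.06% of those of Echs1, and the strand setting of the counting is not given in the sources used here. Hadha and Hadhb, subunits of the long-chain trifunctional protein, had -0.57 ± 0.24 and -0.55 ± 0.27 in wild type and -0.70 ± 0.27 and -0.93 ± 0.30 in MCJ-deficient mice, and neither was called. The matrix thiolase Acaa2 had -0.28 ± 0.30 and -0.55 ± 0.33.

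Auxiliary enzymes prepare double bonds of unsaturated chains for the spiral, and 3 of the 4 fell in both genotypes. Ech1 (chr7:28825338-28832239), a dienoyl-CoA isomerase of mitochondria and peroxisomes, had 465, 538 and 378 CPM in wild-type NN and 113, 191 and 186 in PP. In MCJ-deficient mice it had 268 and 294 CPM in NN and 114, 88.2 and 206 in PP. Both comparisons were without overlap, and MCJ-deficient NN lay below all wild-type NN libraries. The log2 fold change was -1.50 ± 0.29 (adjusted p = 0.0017) in wild-type mice and -1.05 ± 0.32 (adjusted p = 0.042) in MCJ-deficient mice. Decr1 (chr4:15917240-15945377), the mitochondrial dienoyl-CoA reductase, had 151, 99.1 and 92.0 CPM in wild-type NN, 57.2, 78.4 and 64.7 in PP, 105 and 115 in MCJ-deficient NN and 42.8, 38.9 and 65.6 in PP. Its log2 fold change was -0.77 ± 0.27 (adjusted p = 0.049) and -1.17 ± 0.29 (adjusted p = 0.015). Eci1 (chr17:24426683-24439316), an enoyl-CoA isomerase, had 63.4, 87.2 and 57.5 CPM in wild-type NN, 26.9, 49.6 and 38.4 in PP, 65.4 and 58.9 in MCJ-deficient NN and 20.2, 22.1 and 41.0 in PP. It fell by 0.86 ± 0.30 (adjusted p = 0.049) and by 1.16 ± 0.32 (adjusted p = 0.029) on the log2 scale. The wild-type calls of Decr1 and Eci1 held in 2 of 6 fits that left out a library, and not with DESeq2 size factors, without the filter on low counts or with only the groups compared (adjusted p up to 0.209 and 0.192). In MCJ-deficient mice the calls of Ech1, Decr1 and Eci1 were lost without PP library 23 and with only the groups compared. Those of Ech1 and Eci1 were also lost without library 22, and that of Ech1 with DESeq2 size factors. The related isomerase Eci2 had 0.25 ± 0.26 and 0.27 ± 0.29 and was not called.

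In the electron transfer group, Etfb (chr7:43444072-43457800), the beta subunit of the flavoprotein, fell in wild type. It had 180, 263 and 194 CPM in NN and 84.5, 115 and 101 in PP, a log2 fold change of -1.08 ± 0.25 (adjusted p = 0.0054). In MCJ-deficient mice it had 153 and 141 CPM in NN and 59.0, 83.2 and 115 in PP, with -0.78 ± 0.27 (adjusted p = 0.082). The alpha subunit Etfa had -0.42 ± 0.28 and -0.67 ± 0.31. Etfdh, which hands the electrons to ubiquinone, had 0.38 ± 0.33 and -0.25 ± 0.37 and was the 1 member whose sign differed between genotypes. The overlapping gene Ppid had counts equal to 34.3% of those of Etfdh, and Utp14b 27.6% of those of Acsl3, and without the strand setting these reads cannot be told apart.

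Of the peroxisomal enzymes, the thiolases Acaa1a (chr9:119341028-119350296) and Acaa1b (chr9:119148043-119157093) were lower in PP. Acaa1a had 54.7, 114 and 75.3 CPM in wild-type NN and 28.6, 38.1 and 39.3 in PP, and 106 and 88.7 CPM in MCJ-deficient NN against 46.6, 47.6 and 50.05 in PP. Its groups did not overlap in either genotype, and the 3 MCJ-deficient PP libraries lay close together. The log2 fold change was -1.20 ± 0.28 (edgeR adjusted p = 0.0057) and -1.02 ± 0.31 (adjusted p = 0.04). The MCJ-deficient call of Acaa1a was lost without any 1 of PP libraries 22, 23 and 24, and with DESeq2 size factors. Acaa1b fell by 1.05 ± 0.32 on the log2 scale in wild type (adjusted p = 0.029) and had -0.88 ± 0.35 (adjusted p = 0.13) in MCJ-deficient mice. The 2 genes share 583 stretches of 50 bases, 12.4% of those of Acaa1a and 30.5% of those of Acaa1b, so reads may be split between them and their values are uncertain as single genes. Ehhadh, the peroxisomal bifunctional enzyme, had -0.55 ± 0.31 and -0.58 ± 0.34.

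Both ketone body genes fell in MCJ-deficient mice. Acat1 (chr9:53580522-53610350), the acetoacetyl-CoA thiolase, had 217 and 184 CPM in NN and 61.3, 69.2 and 128 in PP, a log2 fold change of -1.22 ± 0.33 (adjusted p = 0.025). Bdh1 (chr16:31422297-31458901), which converts acetoacetate and beta-hydroxybutyrate into each other, had 105 and 80.8 CPM in NN and 38.4, 49.9 and 33.3 in PP, with -1.19 ± 0.31 (adjusted p = 0.018). The groups did not overlap for either gene. Both calls were lost without PP library 22, and that of Acat1 also without library 23 and with only the groups compared. In wild type Acat1 had 186, 158 and 136 CPM in NN and 103, 147 and 100 in PP, which overlapped, with -0.45 ± 0.30 (adjusted p = 0.3). Bdh1 had 57.5, 43.1 and 60.3 CPM in wild-type NN and 27.9, 47.2 and 21.6 in PP, with -0.74 ± 0.28 (adjusted p = 0.072). The difference between genotypes was itself tested and was not called for Acat1 (-0.77 ± 0.45, adjusted p = 0.69) or Bdh1 (-0.46 ± 0.41, adjusted p = 0.84). Ppara, the nuclear receptor that drives many of these genes in liver, was low in every library, between 3.28 and 17.2 CPM, with -0.84 ± 0.51 and -0.78 ± 0.56.

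**Figure D3:**
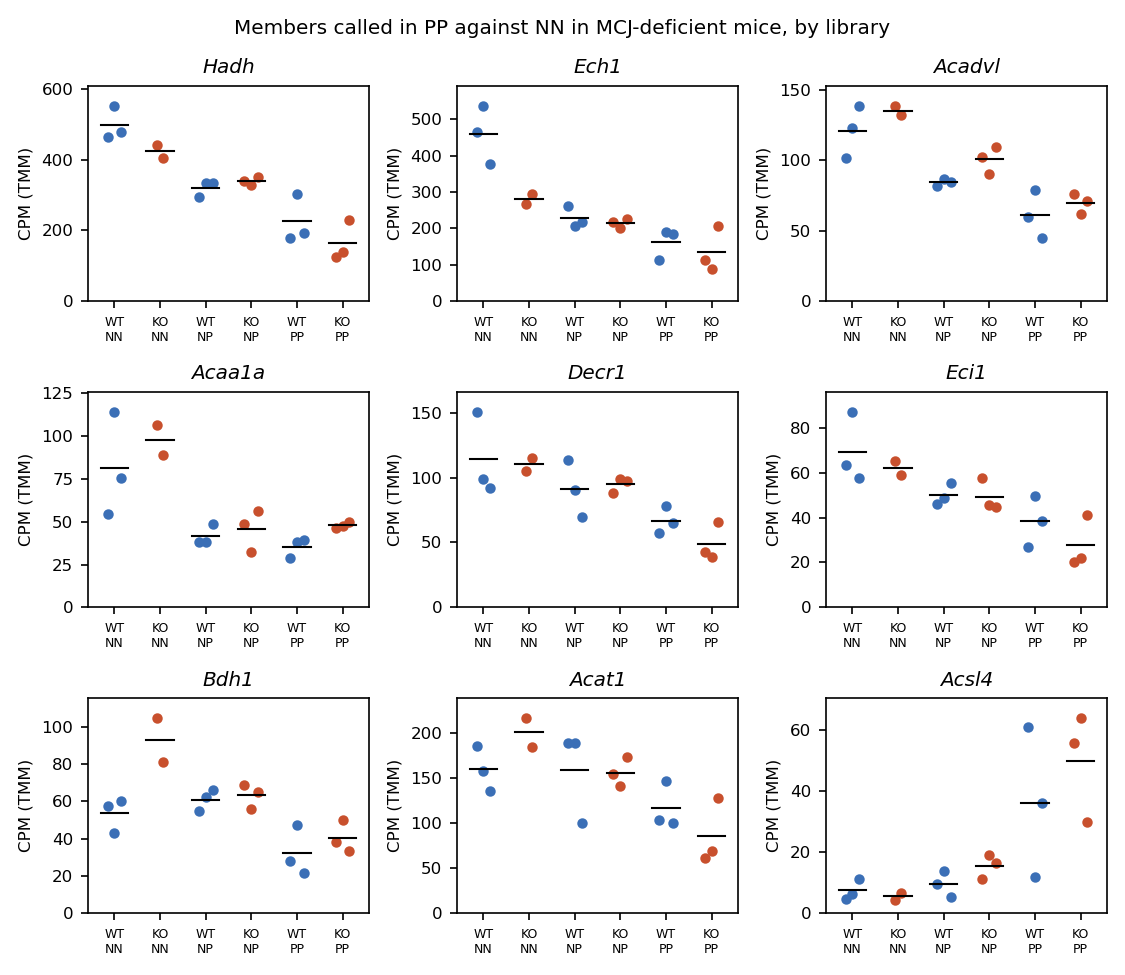
CPM of the 9 members called in PP against NN in MCJ-deficient mice, in each library (points) with the group mean (line), for wild type (blue) and MCJ-deficient (orange) mice in NN, NP and PP. Every PP point of the 8 falling genes lies below the NN points of its genotype in MCJ-deficient mice, and Acsl4 shows the opposite order. The genes were selected by this same comparison, so this separation adds nothing to the calls.

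Marker RNA of several cell types also differed between NN and PP. From NN to PP, 10 of 16 colonocyte markers were called lower in wild type (median log2 fold change -1.33) and 8 of 16 in MCJ-deficient mice (median -1.06). In the same comparisons 13 and 12 of 14 macrophage markers and 8 and 8 of 10 neutrophil markers were called higher, with no marker of either list called lower. Of 7 monocyte markers, 6 were called higher in each genotype and 1 lower in wild type. Their mean sum went from 1662 to 1026 CPM in wild type and from 739 to 1612 in MCJ-deficient mice. Red blood cell markers summed to 3.86 and 4.92 CPM in MCJ-deficient NN and 752 to 11580 in PP. In wild type they summed to 10.1 to 20.1 and 257 to 347. Over all genes, 12.8% and 6.52% were called higher and 7.31% and 3.77% lower. In such bulk samples, fewer cells of a type and less RNA per cell cannot be told apart, and the part of the colonocyte share in the members' falls was not tested. Without wild-type PP library 11, 9 of the 10 wild-type calls remained (Acaa1b did not), and Acads, Hadha and Bdh1 were also called. Without MCJ-deficient PP library 24, 8 of 9 remained (Acaa1a did not), and Hadhb, Echs1 and Etfb were also called. The shares of all genes called without library 11 or 24 are not given here. The MCJ-deficient calls rest on both NN libraries, since none of the 9 passed without library 13 and 2 (Acsl4 and Hadh) passed without library 14. Without PP library 22 there were 4, and without library 23 there were 3. In MCJ-deficient mice the sex marker Xist was high in both NN libraries and near 0 in all PP libraries, so sex and condition cannot be told apart there. In wild type, NN library 3 had 1 count of Xist, as low as the PP libraries. Each of the 9 falling members was higher in it than in all 3 PP libraries. This is 1 library, and these members were called with it among the NN libraries. The order therefore follows in part from their selection and is not read as a result. The part of sex in these falls was not tested. Acsl4, which is X-linked, had 11.3 CPM in NN library 3 and 11.8 in PP library 11.

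**Figure D4:**
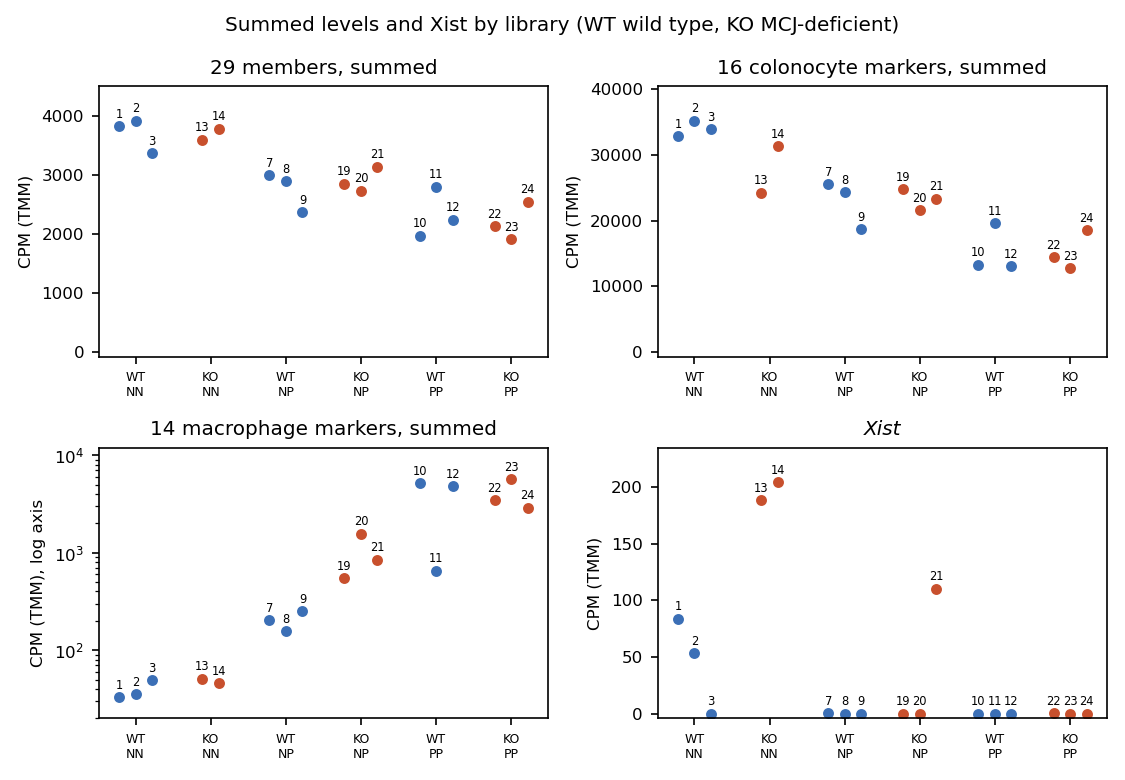
Summed CPM per library of the 29 members, of 16 colonocyte markers and of 14 macrophage markers (log axis), and CPM of Xist, with replicate numbers beside the points and genotype and condition on the horizontal axis. The members and the colonocyte markers are highest in NN and lowest in PP, and macrophage markers run the other way.

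DSS without antibiotic was examined as NP against NN. No member was called in either genotype by edgeR, while 2.44% of all 16958 genes were called in wild-type mice and 2.08% in MCJ-deficient mice. An unadjusted p under 0.05 was reached by 8 members in wild-type mice and 4 in MCJ-deficient mice, against 15.9% and 8.27% of all genes. DESeq2 called 4 members in wild type (Ech1, Etfb, Acaa1a and Acaa1b, all lower) and 1 in MCJ-deficient mice (Acaa1a, lower), against 7.90% and 5.35% of the genes it gave an adjusted p. The estimates lay below 0 for 23 of 29 members in each genotype, with a median of -0.32 in wild-type mice and -0.33 in MCJ-deficient mice against 0.14 and 0.02 over all genes. The smallest adjusted p was that of Ech1 in wild type and of Acaa1a in MCJ-deficient mice. Acaa1a had 37.9, 38.3 and 48.5 CPM in wild-type NP and 48.5, 32.6 and 56.5 in MCJ-deficient NP, with log2 fold changes of -0.97 ± 0.28 (adjusted p = 0.08) and -1.09 ± 0.31 (adjusted p = 0.091). The NP libraries lay below all NN libraries of the genotype in MCJ-deficient mice and in wild type. Ech1 had 261, 206 and 217 CPM in wild-type NP, with -1.01 ± 0.29 (adjusted p = 0.078), and 217, 201 and 225 in MCJ-deficient NP, with -0.39 ± 0.32 (adjusted p = 0.86). Bdh1 had estimates of 0.18 ± 0.28 and -0.55 ± 0.31. Xist was high in 4 of 5 NN libraries and 1 of 6 NP libraries, and the part of sex in these values was not tested.

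The addition of antibiotic before DSS was examined as PP against NP. In wild type 1 of 29 members rose and none fell, where 3.49% of all genes were called higher and 0.926% lower. In MCJ-deficient mice none rose and 1 fell, where 1.34% were called higher and 0.389% lower. The wild-type gene was Acsl4, with 9.67, 13.9 and 5.45 CPM in NP, 1 of which lay above PP library 11, and a log2 fold change of 1.90 ± 0.52 (adjusted p = 0.044). It passed in 1 of 6 fits that left out a library. The MCJ-deficient gene was Hadh, with 340, 329 and 352 CPM in NP against 126, 138 and 230 in PP, a log2 fold change of -1.05 ± 0.25 (adjusted p = 0.046), which also passed in 1 of 6 such fits. The call of Hadh was also lost with DESeq2 size factors (adjusted p = 0.0531) and with only the groups compared in the fit (adjusted p = 0.0815), and that of Acsl4 in wild type with only the groups compared. Acsl4 had 11.3, 19.1 and 16.3 CPM in MCJ-deficient NP and a log2 fold change of 1.68 ± 0.51 (adjusted p = 0.11). Decr1 in MCJ-deficient mice had 88.2, 99.0 and 97.5 CPM in NP, above all PP libraries, with -0.95 ± 0.27 (adjusted p = 0.078). Bdh1 in wild type had 54.5, 62.0 and 65.8 CPM in NP, also above all PP libraries, with -0.92 ± 0.28 (adjusted p = 0.076). By DESeq2, 2 members were called in wild type (Acsl4 and Bdh1) and 3 in MCJ-deficient mice, against 9.53% and 7.53% of the genes it gave an adjusted p. In all, an unadjusted p under 0.05 was reached by 3 members in wild-type mice, where 16.6% of all genes reached it, and by 11 in MCJ-deficient mice, where 14.3% did. This comparison shares its PP libraries with the comparison against NN.

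Loss of MCJ was compared with wild type within each condition. No member was called in NN, NP or PP by edgeR. Over all genes tested, 0 of 13559 were called in NN, 1.00% of 14452 in NP and 0 of 14556 in PP. Dnajc15 itself was called in NP only. Its log2 fold change was -3.76 ± 0.55 in NN (edgeR adjusted p = 0.33) and -4.15 ± 0.76 in PP (adjusted p = 0.79). A missing call in NN or PP therefore does not show that levels were equal. An unadjusted p under 0.05 was reached by 5 members in NN, 0 in NP and 1 in PP, against 8.29%, 9.24% and 5.21% of all genes tested. DESeq2 called 2 members in NN and none in the other conditions, against 8.74%, 2.30% and 0.556% of the genes it gave an adjusted p (3274 in NN). The median log2 fold change of the members was 0.05 in NN, 0.13 in NP and 0.04 in PP, against 0.08, 0.03 and 0.01 over all genes tested.

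**Figure D5:**
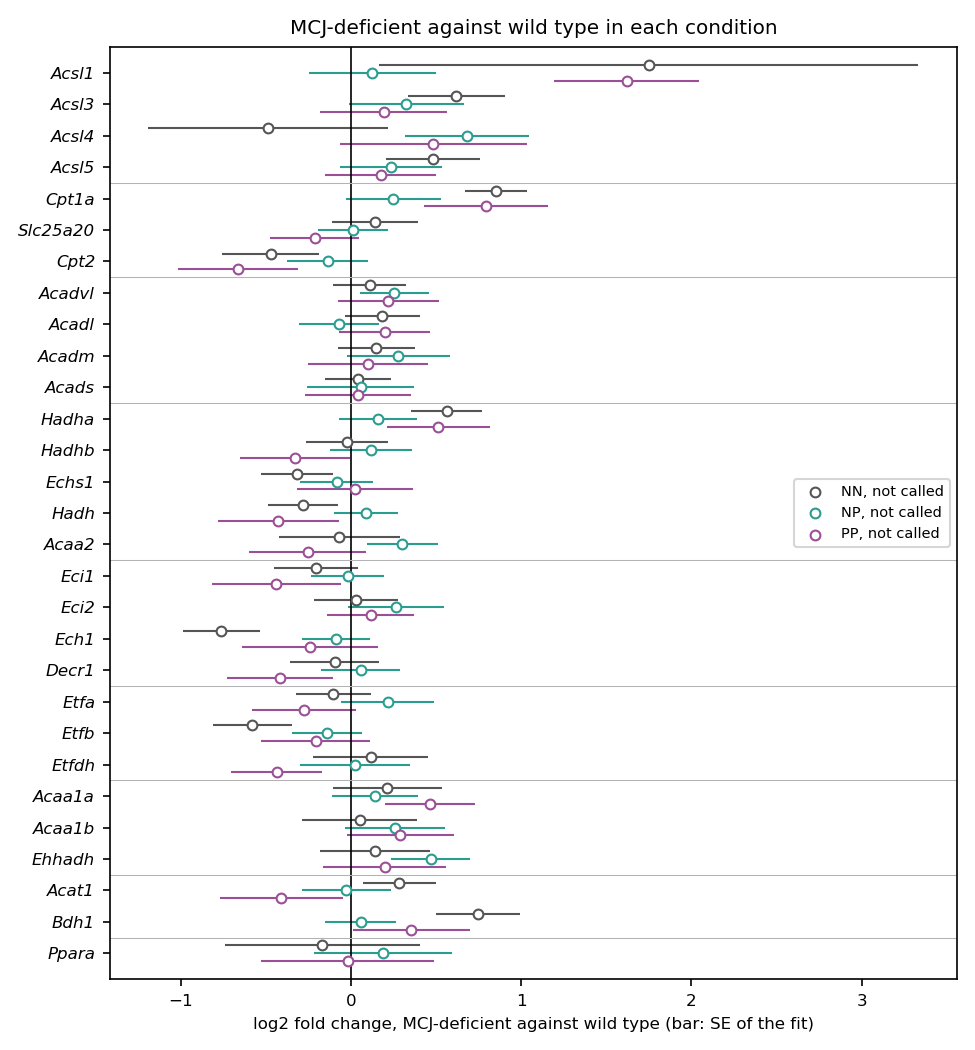
Log2 fold change of each gene in MCJ-deficient against wild-type mice (horizontal axis, bars are SE of the fit) in NN (grey), NP (green) and PP (purple). No point is filled, since no member was called, and the NP estimates stay between -0.14 and 0.68.

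The 5 members with an unadjusted p under 0.05 in untreated mice pointed both ways. Cpt1a had 90.1, 83.8 and 79.7 CPM in wild-type NN and 153 and 163 in MCJ-deficient NN, without overlap, with a log2 fold change of 0.85 ± 0.18 (adjusted p = 0.57). In PP it had 51.6, 71.4 and 61.3 CPM in wild type and 153, 72.3 and 86.8 in MCJ-deficient mice, again without overlap, with 0.79 ± 0.36 (adjusted p = 0.94). In NP its groups overlapped, at 64.6 to 103 and 67.4 to 132 CPM, with 0.25 ± 0.28. As the mean of the 3 conditions, fitted on the 17 libraries together, the estimate for Cpt1a was 0.64 ± 0.18 (adjusted p = 0.14), and DESeq2 called it both in NN (adjusted p = 0.00125) and averaged (adjusted p = 0.0477). Ech1 was lower in MCJ-deficient NN (268 and 294 CPM against 378 to 538), with -0.76 ± 0.23 (adjusted p = 0.57) and a DESeq2 adjusted p of 0.0123. Bdh1 was at 105 and 80.8 CPM in MCJ-deficient NN against 43.1 to 60.3 in wild type, with 0.74 ± 0.25 (adjusted p = 0.57), and Etfb had -0.58 ± 0.23 and Hadha 0.56 ± 0.21 there. Acsl1 had 27.7, 25.5 and 9.95 CPM in MCJ-deficient PP against 6.40, 7.79 and 6.65 in wild-type PP, with 1.62 ± 0.43 (adjusted p = 0.94). Averaged over conditions, 0.00590% of all genes were called and none of the members, with 5 members and 13.7% of all genes at an unadjusted p under 0.05, and 1 member and 3.61% of genes called by DESeq2. In MCJ-deficient NN the mitochondrially encoded genes took 23.1% and 28.4% of counts, against 38.9 to 50.4% in wild-type NN, and both libraries had high Xist against 2 of 3 in wild type. The part of these in the estimates was not tested.

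The MCJ effect was also compared between conditions, and no member differed by edgeR or by DESeq2. Of all 16958 genes, 0% were called for NP minus NN, 0% for PP minus NP and 0.0531% for PP minus NN, and no member reached an unadjusted p under 0.05 in any of the 3, against 5.60%, 5.22% and 8.26% of all genes. DESeq2 called 1.05%, 0.560% and 1.20% of the genes it gave an adjusted p. The smallest adjusted p of a member was 0.98, 1 and 0.69 in that order.

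Other genes of the pathway were read from a list of 86 that held no member, of which 81 were tested in the fit of all libraries. From NN to PP, 7 of 81 rose and 13 fell in wild type, and 4 rose and 13 fell in MCJ-deficient mice. Over all 16958 genes tested, 12.8% rose and 7.31% fell in wild type, and 6.52% rose and 3.77% fell in MCJ-deficient mice. The median of the list was -0.20 and -0.27. The 6 with the smallest p in wild type were Phyh, Cd36, Slc16a6, Hsd17b10, Slc16a1 and Acot13. Slc16a1, the monocarboxylate carrier that takes up butyrate and ketone bodies, fell from 349 ± 73.7 to 149 ± 34.9 CPM in wild type (log2 fold change -1.23 ± 0.29, adjusted p = 0.0056). Phyh, of peroxisomal alpha oxidation, had -1.38 ± 0.24 (adjusted p = 0.00078), and Hsd17b10, a short-chain hydroxyacyl dehydrogenase, had -1.20 ± 0.28 (adjusted p = 0.0054). The acyl-CoA hydrolase Acot13 had -1.11 ± 0.28 in wild type (adjusted p = 0.0089) and -1.37 ± 0.30 in MCJ-deficient mice (adjusted p = 0.0069). Slc16a6, a relative of the monocarboxylate carriers, rose by 5.18 ± 1.1 on the log2 scale in wild type (adjusted p = 0.003), a value that rests on 16 counts over the 3 NN libraries. In MCJ-deficient mice the 6 were Fabp4, Cd36, Acot13, Fabp2, Decr2 and Hnf4a. The gut fatty acid binding protein Fabp2 had -1.81 ± 0.43 (adjusted p = 0.011), the epithelial transcription factor Hnf4a had -1.55 ± 0.37 (adjusted p = 0.011) and the peroxisomal reductase Decr2 had -1.10 ± 0.26 (adjusted p = 0.011).

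Cd36 and Fabp4, of fatty acid uptake and binding, were called higher both after DSS alone and in PP. Cd36, the fatty acid receptor of macrophages, adipocytes and capillaries, had 2.66, 0.10 and 4.05 CPM in wild-type NN. After DSS alone it had 63.4, 30.2 and 24.96 CPM, and in PP 38.0, 31.8 and 170. In MCJ-deficient mice it had 1.71 and 1.57, then 13.9, 59.0 and 22.7, then 51.5, 46.5 and 72.0 CPM. NN lay below both treated conditions in each genotype, and NP and PP overlapped. The log2 fold change from NN was 4.11 ± 0.86 (adjusted p = 0.016) in NP and 5.12 ± 0.90 (adjusted p = 0.00079) in PP in wild type, and 4.28 ± 1.03 (adjusted p = 0.035) and 5.11 ± 1.08 (adjusted p = 0.005) in MCJ-deficient mice. Fabp4, a fatty acid binding protein of adipocytes, macrophages and endothelium, rose in the same 4 comparisons, from 17.1 to 25.4 CPM in wild-type NN to 75.4 to 131 in NP and 27.9 to 204 in PP, and from 1.08 and 2.68 in MCJ-deficient NN to 22.5 to 85.8 in NP and 110 to 146 in PP. Its log2 fold changes were 2.43 ± 0.62 and 2.16 ± 0.61 in wild type and 4.62 ± 0.83 and 6.14 ± 0.89 in MCJ-deficient mice, with adjusted p of 0.046, 0.019, 0.0041 and 0.00024. The 8 adipocyte markers summed to 9.62 to 27.6 CPM in wild-type NN and 15.4 and 18.6 in MCJ-deficient NN, where Adipoq and Plin1 were at 0 in both groups. They summed to 23.5 to 54.3 CPM in wild-type PP and 88.5 to 447 in MCJ-deficient PP. The 5 endothelial markers had mean sums of 11.25, 28.4 and 61.4 CPM in wild-type NN, NP and PP. In MCJ-deficient mice these means were 3.90, 38.3 and 51.3 CPM. The part of adipocyte, endothelial and macrophage markers in the rises of Cd36 and Fabp4 was not tested. In DSS alone Cd36 and Fabp4 were the only called genes of the list in either genotype, where 2.44% and 2.08% of all genes were called. For PP against NP only Decr2 was called, in wild type (-0.86 ± 0.24, edgeR adjusted p = 0.047). There 3.49% of all genes were called higher and 0.926% lower. No gene of the list was called for the MCJ effect in NN, NP or PP by edgeR, with 3 at an unadjusted p under 0.05 in each. Of all genes tested, 0%, 1.00% and 0% were called there, and 8.29%, 9.24% and 5.21% had an unadjusted p under 0.05.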

How the data were processed

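Raw counts came from 3 tables as deposited, 1 for each condition, with genes under NCBI numbers. Per the submitters' processing notes, CASAVA 1.8.2, FastQC, Trim Galore, STAR 2.5.4 and DESeq2 were used with mm10. The counting program, annotation and strand setting are not given in the sources used here. Of 27179 gene numbers, 25275 were named from RefSeq.

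Counts were filtered with filterByExpr, scaled with TMM and tested with the edgeR 4.0.16 quasi-likelihood test in R 4.3.3, with Benjamini-Hochberg adjustment over all genes tested and calls at an adjusted p under 0.05. The MCJ effect in each condition was fitted within its own table, and all other comparisons in 1 fit of the 17 libraries. That fit joins separately deposited tables and assumes that they were counted alike. SE values come from the fit. Levels per kilobase used merged exons of GENCODE M21. Alternatives were DESeq2 1.42.0, DESeq2 size factors, leaving out mitochondrial genes, no filter, other sets of groups in the fit, leaving out each library, and a block on mouse number where 2 groups share 2 numbers. The labels pair no animals, so the main results have no block.

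All 29 members are named by role, and of the 86 other pathway genes at most the 6 called with the smallest p per comparison. The members and lists were chosen with earlier results of these data known. The fitting code was tested on simulated data, in which 100 genes changed by 1 and 100 by 2 on the log2 scale, and no others. Of genes changed by 1 on the log2 scale, 1%, 4% and 0% were recovered for the MCJ effect in NN, NP and PP. For PP against NN in MCJ-deficient mice it was 0%. Of genes changed by 2, 15%, 73% and 4% were recovered for the MCJ effect, and 23% for PP against NN in MCJ-deficient mice. In the simulation, most changes of the smaller size were missed. In the data, 6.52% of genes were called higher and 3.77% lower for PP against NN in MCJ-deficient mice. The adjusted threshold is less strict with more changed genes, so the simulated shares do not carry over to that comparison.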

Additional observations from a re-analysis of the deposited data

How the results depend on the processing

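No result for a member changed direction past the threshold under any alternative run. DESeq2 called 2 members for the MCJ effect in NN, 4 for DSS in wild type, 1 for DSS in MCJ-deficient mice, 2 and 3 for PP against NP in wild type and MCJ-deficient mice, and 1 for the averaged MCJ effect, and for PP against NN it called 13 and 9. With only the groups compared in the fit, the calls were 2 for DSS in MCJ-deficient mice, 0 for PP against NP in wild type, 1 in MCJ-deficient mice (Acsl4, with Hadh lost), and 5 and 4 for PP against NN. With DESeq2 size factors, 0 members were called for PP against NP in MCJ-deficient mice, and the median of all genes moved by 0.11 (log2) for PP against NN in MCJ-deficient mice and by 0.10 for the MCJ effect in NP minus NN. When each library was left out in turn, the calls ranged from 0 to 1 for DSS in wild type (1 without wild-type NN library 1), from 0 to 3 and from 0 to 5 for PP against NP in wild type and MCJ-deficient mice, from 7 to 12 for PP against NN in wild type, and from 0 to 11 in MCJ-deficient mice. The calls for PP against NP were highest without wild-type PP library 11 and MCJ-deficient PP library 24, and 0 without any other single library. Acsl4, Acadvl, Echs1, Hadh, Ech1, Etfb and Acaa1a passed in all 6 of these wild-type fits of PP against NN. Where 1 of the 2 MCJ-deficient NN libraries was left out, the remaining one was assumed to vary like the other groups. Library numbers recur in no 2 groups, but mouse numbers 1 and 2 do in both NN groups and in MCJ-deficient NN and NP, with no label saying that a number marks a shared litter or batch. Deviations of same-numbered libraries correlated between -0.056 and 0.0361. A replicate block on mouse number was added after seeing the data and left 1 residual degree of freedom. It gave 0 calls for the MCJ effect in NN. For DSS in MCJ-deficient mice, with only those groups in the fit, it gave 5, against 2 without the block. These were Acsl4 higher, and Cpt1a, Hadha, Acaa1a and Acaa1b lower. With 1 residual degree of freedom, these 5 calls are not read as a result about the members. For the leave-one-out fits, the block, and DSS or PP against NP with only the groups compared, no share of all genes is given beside the member counts. Those counts show only how the calls depend on the setting. With 2 or 3 libraries a group, a missed threshold does not show that levels were equal.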
